A study of Mus musculus with 6 samples.

Results

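The 8 genes described here mark the epithelium of the lacrimal gland (LG), which makes the watery part of the tear film. They were taken by name from the deposited gene table, which holds 12491 genes, and all 8 were present. Msln, Clu, Krt7, Krt8, Krt18 and Krt19 make up the 6 duct and luminal markers, and Krt5 and Krt14 the 2 basal markers. The set was chosen by the T2DM and vehicle FPKM of these same libraries, so the contrast between the groups is given for the 8 genes as a description, and no call of a test on them is used as a result.

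RNA-seq was performed on whole LG from 3 vehicle and 3 T2DM libraries of male C57BL/6 mice. In the T2DM group, a high-fat diet (HFD) begun at an age of 4 weeks was followed after 6 weeks by streptozotocin (STZ), a toxin of the insulin-producing cells, at 50 mg/kg for 5 days, and the HFD was then continued. Vehicle mice were kept on normal chow and were injected with citrate buffer, so the effects of diet and of STZ cannot be told apart in this contrast. The methods of the study place collection 24 weeks after the last STZ injection, whereas the sample labels state an age of 24 weeks for both groups. It is not given in the sources used here whether each library stands for 1 mouse or for a pool, so the p-values below measure the spread between libraries.

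Keratins are the intermediate filament proteins of epithelial cells, and they work in pairs of an acidic (type I) and a basic (type II) chain. Simple epithelia such as ducts and acini build their filaments mainly from Krt8 (type II) and Krt18 (type I), to which ductal cells add Krt7 (type II) and Krt19 (type I). Basal and myoepithelial cells, which lie between the luminal cells and the basement membrane, use the pair Krt5 (type II) and Krt14 (type I). Msln encodes mesothelin, a surface protein anchored in the membrane by a lipid and known best from the mesothelium, and Clu encodes clusterin, a secreted chaperone that is made by many epithelia. In whole-gland RNA, more cells of a type and more RNA per cell cannot be told apart.

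The share of each transcript that also occurs in other genes was measured over windows of 50 bases of the GENCODE M21 transcripts, since keratin genes are alike in sequence. In the Krt8 transcript 29.7% of windows also occurred in the transcript of another gene, either the pseudogene Krt8-ps or Gm36026. The share was 14.4% for Krt14, with matches in Krt16 and Krt17, and 12.2% for Krt5, with matches that included Krt6a and Krt6b. It was 0.72% for Krt18 and 0.22% for Krt7, and 0 windows were shared for Msln, Clu and Krt19. How the authors' quantification assigned such reads is not given in the sources used here, so the levels of Krt8, Krt14 and Krt5 are less certain than those of the other 5 genes.

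Levels were given as FPKM, that is fragments normalised to gene length and to the mapped reads of a library, so genes can be compared per length. FPKM hold no read numbers, and the depth of the libraries is therefore unknown. The summed FPKM ranged from 611638 to 838936, and secretoglobins, small secreted proteins of exocrine glands, took 44.9% to 51.8% of it in the vehicle libraries and 37.3% to 41.5% in the T2DM libraries. The median difference of all 12135 genes tested was 0.16 on the log2(FPKM + 1) scale, and it was 0.0044 when the libraries were scaled by the median of ratios. All 17 listed acinar genes had values, as the labelled tissue would have, with sums of 67740 to 83460 FPKM. Vehicle replicate 1 stood apart in salivary gland genes, with a summed level of 2324 FPKM over 9 genes that included Bpifa2, Smr3a and Amy1, against 11.9 to 21.2 FPKM in the other 5 libraries. Of all genes tested, 1271 were higher and 206 lower in the T2DM group (limma, Benjamini-Hochberg adjusted p under 0.05), and this split became 477 higher and 481 lower under the median of ratios.

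Krt18 and Krt8, the filament pair of simple epithelium, were the most abundant of the 8 genes in every library. Krt18 (chromosome 15, 102028216 to 102032026, plus strand, GRCm38) stood at 332.4, 296.3 and 325.7 FPKM in vehicle replicates 1 to 3 and at 521.2, 457.7 and 422.8 FPKM in T2DM replicates 1 to 3. Each T2DM library lay above each vehicle library, and the lowest T2DM value was 1.27 times the highest vehicle value. The mean was 318.1 ± 19.2 FPKM in vehicle LG and 467.2 ± 49.9 FPKM in the T2DM group (SD, n = 3 each), a difference of 0.55 (SE 0.10) on the log2(FPKM + 1) scale.

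Krt8 (chromosome 15, 101996711 to 102004342, minus strand) was at 223.2, 237.0 and 261.5 FPKM in vehicle LG and at 329.1, 292.5 and 266.8 FPKM in the T2DM group. The groups only just parted, since T2DM replicate 3 was 1.02 times vehicle replicate 3. The means were 240.6 ± 19.4 and 296.1 ± 31.3 FPKM (SD, n = 3 each), with a difference of 0.30 (SE 0.11) on the log2 scale, the smallest of the 8 genes. Among all genes of the table, Krt18 ranked 86 by vehicle mean and 72 by T2DM mean, and Krt8 ranked 103 and 92.

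Krt7 and Krt19, the keratins that join this pair in duct cells, lay far below it. Krt7 (chromosome 15, 101411043 to 101430313, plus strand) was at 3.14, 2.58 and 2.65 FPKM in vehicle LG and at 10.3, 6.41 and 4.52 FPKM in the T2DM group. The T2DM libraries were all higher, although they spread widely, with a coefficient of variation of 41.7%. The mean was 2.54 times as high in the T2DM group, at 7.08 ± 2.95 against 2.79 ± 0.31 FPKM (SD, n = 3 each), and the log2 difference was 1.03 (SE 0.24).

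Krt19 (chromosome 11, 100140810 to 100148665, minus strand) was at 1.63, 1.18 and 2.00 FPKM in vehicle LG and at 4.20, 2.52 and 2.52 FPKM in the T2DM group. The groups did not overlap, and T2DM replicate 1 stood above the other libraries. With means of 1.60 ± 0.41 and 3.08 ± 0.97 FPKM (SD, n = 3 each) it was the lowest of the 8 genes in both groups, and its log2 difference was 0.64 (SE 0.19).

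Msln, the gene of mesothelin (chromosome 17, 25748614 to 25754327, minus strand), had the widest gap between the groups. It was at 4.88, 4.31 and 6.09 FPKM in vehicle LG and at 76.8, 68.9 and 21.9 FPKM in the T2DM group. T2DM replicate 3 lay well below the other T2DM libraries, but was still 3.59 times the highest vehicle value. The mean was 5.09 ± 0.91 FPKM in vehicle LG and 55.9 ± 29.7 FPKM in the T2DM group (SD, n = 3 each), a 10.96-fold ratio, and the log2 difference of 3.04 (SE 0.42) ranked 3 among all genes tested. Its place by mean level moved from 5091 in the vehicle group to 473 in the T2DM group.

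Clu, the gene of the secreted chaperone clusterin (chromosome 14, 65968483 to 65981547, plus strand), combined a wide gap with a narrow spread. It was at 32.3, 40.2 and 39.8 FPKM in vehicle LG and at 139.1, 116.9 and 120.8 FPKM in the T2DM group. The 3 T2DM libraries lay close together and far above the vehicle libraries, with the lowest T2DM value 2.91 times the highest vehicle value. The means of 37.5 ± 4.4 and 125.6 ± 11.8 FPKM (SD, n = 3 each) differed 3.35-fold, or by 1.72 (SE 0.11) on the log2 scale, rank 22 among all genes tested.

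As deposited, the basal pair Krt14 and Krt5 had smaller differences between the groups than Msln, Clu, Krt7 or Krt19. The difference of Krt14 was larger than those of Krt18 (0.55) and Krt8 (0.30), and that of Krt5 lay between these luminal keratins. This order changed when a library was left out. Without vehicle replicate 1 Krt14 was at 0.557 and Krt18 at 0.582. Without T2DM replicate 2 Krt5, at 0.608, was above Krt18 at 0.562 and Krt14 at 0.556. Without T2DM replicate 1 Krt14, at 0.507, was above Krt19 at 0.4496. Krt14 (chromosome 11, 100203162 to 100207548, minus strand) was at 19.4, 20.5 and 22.5 FPKM in vehicle LG and at 36.9, 34.5 and 26.0 FPKM in the T2DM group. T2DM replicate 3 came nearest to the vehicle libraries, at 1.15 times the highest of them. The means were 20.8 ± 1.6 and 32.5 ± 5.7 FPKM (SD, n = 3 each), and the log2 difference was 0.60 (SE 0.14).

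Krt5 (chromosome 15, 101707070 to 101712891, minus strand) was at 18.9, 21.4 and 20.1 FPKM in vehicle LG and at 35.6, 23.0 and 27.3 FPKM in the T2DM group. Only T2DM replicate 1 was far from the vehicle libraries, and T2DM replicate 2 was 1.08 times the highest of them. The means were 20.1 ± 1.2 and 28.6 ± 6.4 FPKM (SD, n = 3 each), and the log2 difference was 0.47 (SE 0.15).

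**Figure D1:**
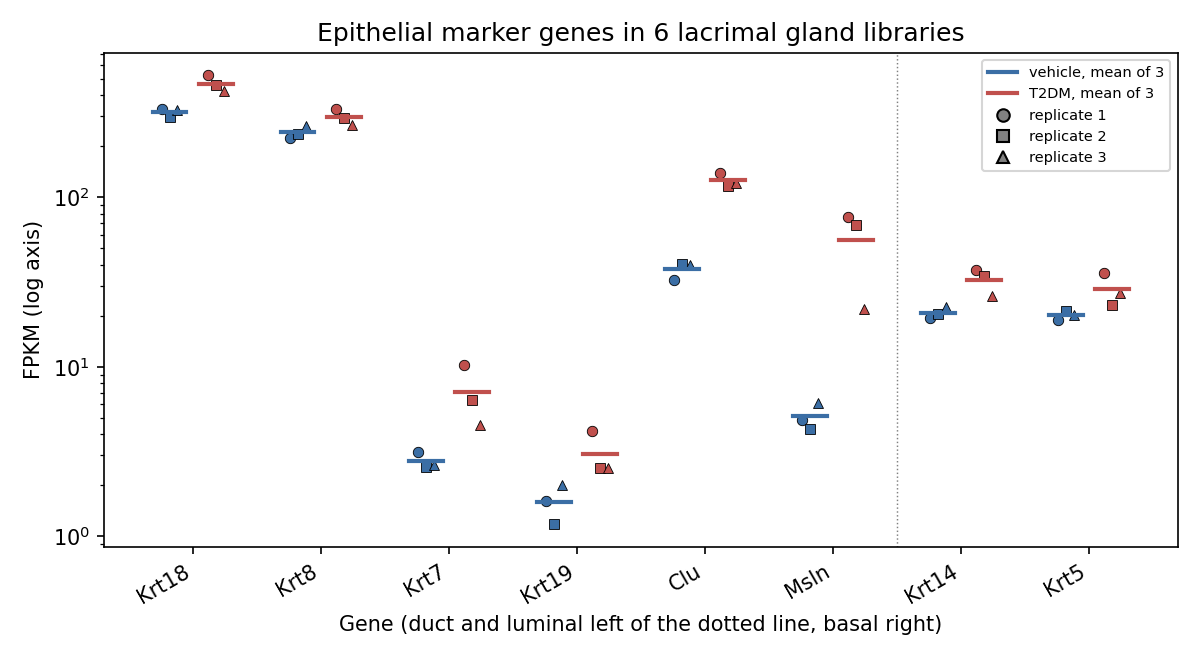
FPKM on a log axis of the 8 epithelial marker genes in the 3 vehicle and 3 T2DM libraries, with each symbol a library and each bar the mean of 3 libraries. The T2DM libraries lie above the vehicle libraries for each gene, from a narrow margin for Krt8 (266.8 against 261.5 FPKM) to a wide one for Msln (21.9 against 6.09 FPKM).

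For all 8 genes every T2DM library lay above every vehicle library, a separation seen in 33.8% of all genes tested, while in 6.1% every T2DM library lay below. By the test across all genes, 5 of the 8 (Msln, Clu, Krt7, Krt14 and Krt18) passed the adjusted p, whereas 10.5% of all genes tested were called higher in the T2DM group; nothing is read from either count, since the same contrast chose the genes. The median log2 difference was 0.83 over the 6 duct and luminal genes and 0.54 over the 2 basal genes, beside 0.16 over all genes tested. T2DM replicate 1 was the highest library for each of the 8 genes. It also had the lowest summed FPKM of the 6 libraries, and the part of this in the values was not tested beyond the scalings that follow. Without that library the median of the 6 duct and luminal genes was 0.61.

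Separation of Krt8, Krt5 and Krt14 depended on the scaling. Under the median of ratios, Msln, Clu, Krt7, Krt18 and Krt19 still had all T2DM libraries above all vehicle libraries, which makes 5 of 8 genes beside 16.9% of all genes tested. Krt8, Krt5 and Krt14 then overlapped between the groups. On that scale Krt8 was at 234.0, 249.8 and 287.6 in vehicle LG and at 289.1, 279.9 and 253.2 in the T2DM group, with a ratio of means of 1.07, whereas Clu kept a ratio of 2.90 and Msln of 9.42. With all libraries brought to the same summed FPKM the 8 genes were apart again, beside 51.5% of all genes tested. The log2 difference of Krt8 ranged from 0.06 to 0.54 over the 16 alternatives run and that of Msln from 2.72 to 3.61, and no gene of the 8 changed sign.

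**Figure D2:**
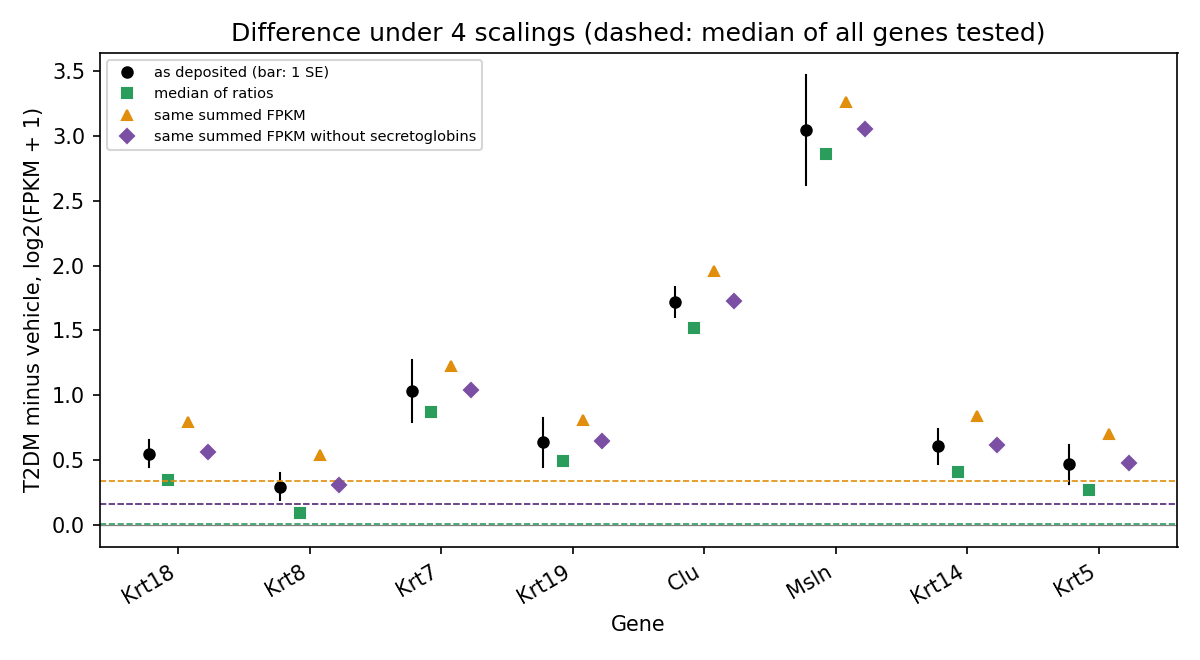
Difference between T2DM and vehicle means of log2(FPKM + 1) for the 8 genes with the values as deposited (bars, 1 SE) and under 3 other scalings, and dashed lines at the median of all genes tested under each. Msln (3.04 as deposited) and Clu (1.72) stand clear of the dashed lines under each scaling shown, and Krt8 (0.30) lies near them.

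The order of the 8 genes by level was almost the same in both groups, apart from Msln. In the vehicle group Krt18 led, followed by Krt8, Clu, Krt14, Krt5, Msln, Krt7 and Krt19. Among these neighbours only Krt14 and Krt5 overlapped between libraries, with Krt14 higher in 2 of 3. In the T2DM group Msln stood above Krt14 and Krt5, but its libraries overlapped those of Krt14, and those of Krt14 overlapped Krt5. Krt8 was 6.42 times Clu in the vehicle mean and 2.36 times Clu in the T2DM mean.

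Ratios between genes of the same library do not depend on how libraries are scaled to each other. Krt18 over Krt8 was 1.49, 1.25 and 1.25 in the vehicle libraries and 1.58, 1.56 and 1.59 in the T2DM libraries. The T2DM libraries were nearly equal and all higher, and vehicle replicate 1 stood apart from the other vehicle libraries. The means were 1.33 ± 0.14 and 1.58 ± 0.011 (SD, n = 3 each), and the vehicle mean was 1.25 without replicate 1. Krt7 over Krt8, both type II, was 0.0117 ± 0.0021 in vehicle LG and 0.0234 ± 0.0073 in the T2DM group (SD, n = 3 each), with no overlap. The share of all genes that part over Krt8 was not computed.

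The basal keratins were also set against the luminal ones. The sum of Krt5 and Krt14 was 0.0728 ± 0.0049 of the summed Krt7, Krt8, Krt18 and Krt19 in vehicle LG and 0.0787 ± 0.0045 in the T2DM group (SD, n = 3 each), and the groups overlapped. Krt14 over Krt5 was 1.03, 0.96 and 1.12 in the vehicle libraries and 1.04, 1.498 and 0.95 in the T2DM libraries. These values overlapped too, with T2DM replicate 2 the highest of all. Of the summed FPKM of the 6 keratins, Krt18 held 52.7% ± 2.5 in vehicle LG and 56.0% ± 0.39 in the T2DM group, and Krt8 39.8% ± 2.2 and 35.5% ± 0.36 (SD, n = 3 each).

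Epcam, an adhesion protein found on most simple epithelium, was used as a first divisor within each library. Epcam itself rose from 109.3 ± 3.8 to 173.1 ± 25.4 FPKM (SD, n = 3 each, limma adjusted p = 0.021), it passed in 4 of the 6 fits with a library left out, and its log2 difference lay between 0.41 and 0.89 over the scalings. Against Epcam, Msln was at 0.0435, 0.0410 and 0.0552 in the vehicle libraries and at 0.382, 0.412 and 0.145 in the T2DM libraries. Its T2DM values were all higher, and the mean ratio was 6.72 times that of the vehicle group. Clu over Epcam was 0.344 ± 0.050 and 0.730 ± 0.060, and Krt7 over Epcam 0.0255 ± 0.0022 and 0.0399 ± 0.0108 (SD, n = 3 each), both without overlap. How many of all genes tested part over Epcam was not computed.

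For Krt8 the direction depended on the divisor. Krt8 over Epcam was 1.99, 2.26 and 2.37 in the vehicle libraries and 1.64, 1.75 and 1.77 in the T2DM libraries. All T2DM values were lower, with a mean 0.779 times that of the vehicle group. Krt18 over Epcam was likewise lower without overlap, at 2.91 ± 0.08 against 2.71 ± 0.10 (SD, n = 3 each), although the lowest vehicle value of 2.82 was close to the highest T2DM value of 2.80. For Krt19, Krt5 and Krt14 the ratios to Epcam overlapped between the groups.

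The log2 difference of Epcam, 0.65, lay well above the median of 0.29 of the 17 tested pan-epithelial genes, so the markers were also divided, after the ratios to Epcam had been seen, by each of these 17 genes and by their sum. Msln and Clu were higher in the T2DM libraries without overlap against all 17, and Krt7 against 14 of them. Krt8 was higher without overlap against 3, lower against 3 and overlapping against 11, and Krt18 was higher against 6, lower against 1 and overlapping against 10. Over the sum of the 17 genes Krt8 was 0.564 ± 0.076 in vehicle LG and 0.528 ± 0.022 in the T2DM group (SD, n = 3 each) with overlap, whereas Krt18 was 0.743 ± 0.046 and 0.832 ± 0.028 (SD, n = 3 each), higher without overlap. The direction of Krt18 was thus opposite to that against Epcam alone. Krt19, Krt5 and Krt14 overlapped between the groups over the sum as well. The share of all genes tested that part over Epcam, over each of the 17 genes or over their sum was not computed. The 17 ratios of a marker also share the same libraries, and the same contrast chose the markers, so nothing is read from these counts.

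**Figure D3:**
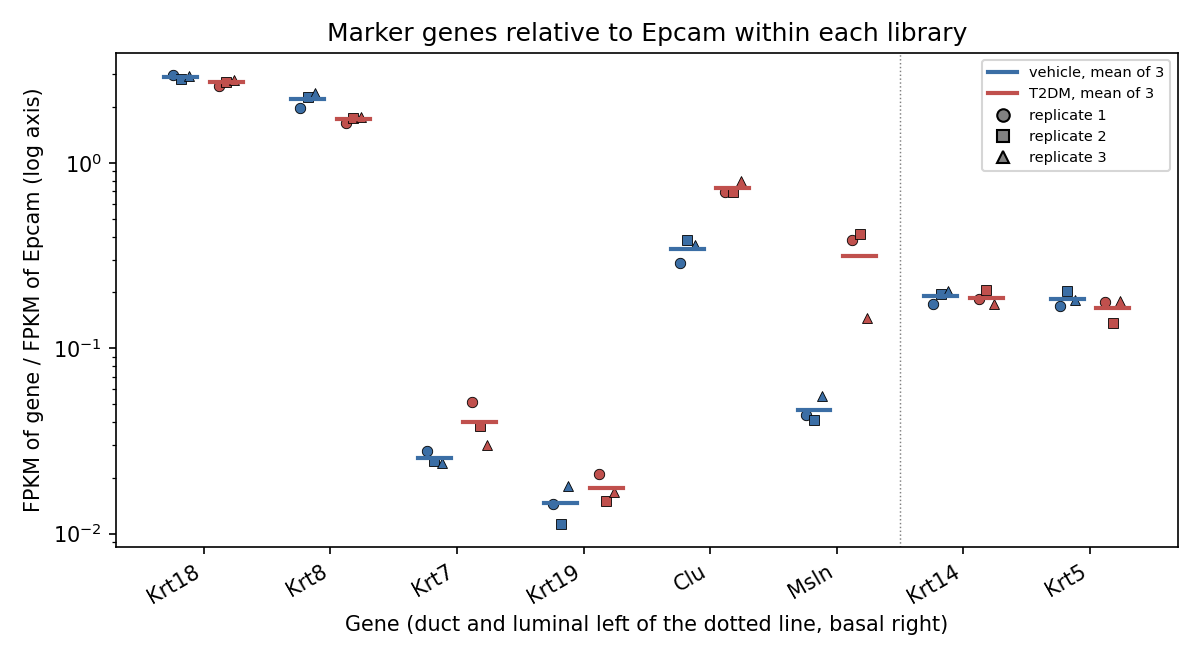
FPKM of each of the 8 genes divided by the FPKM of Epcam in the same library, on a log axis, with each symbol a library and each bar the mean of 3 libraries. Msln, Clu and Krt7 lie higher in the T2DM libraries, Krt8 and Krt18 lower, and Krt19, Krt14 and Krt5 overlap between the groups. The lower values of Krt8 and Krt18 do not hold against the sum of 17 pan-epithelial genes. The share of all genes that part in this way was not computed.

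Of the 26 other keratins listed, 5 had values in the table, so 11 keratin genes could be set side by side. Krt23, a type I keratin, was the next most abundant keratin after Krt18 and Krt8, at 39.3 ± 4.0 FPKM in vehicle LG and 49.2 ± 5.8 FPKM in the T2DM group (SD, n = 3 each, limma adjusted p = 0.107). Krt80, a type II keratin, was at 2.64 ± 0.40 and 5.52 ± 2.50 FPKM (SD, n = 3 each, limma adjusted p = 0.069), and T2DM replicate 1 was again the highest library, at 8.40 FPKM. Krt17, a type I keratin of basal and stressed epithelium, was at 4.50 ± 1.23 and 6.66 ± 1.90 FPKM (SD, n = 3 each, limma adjusted p = 0.168). Krt10, a keratin of differentiated epidermis, was at 1.49 FPKM in both groups. By limma, 0 of the 5 passed the adjusted p, beside 10.5% of all genes called higher. At an unadjusted p under 0.05, 2 of the 5 were higher, beside 3462 of all 12135 genes tested. The median log2 difference was 0.31 beside 0.16.

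**Figure D4:**
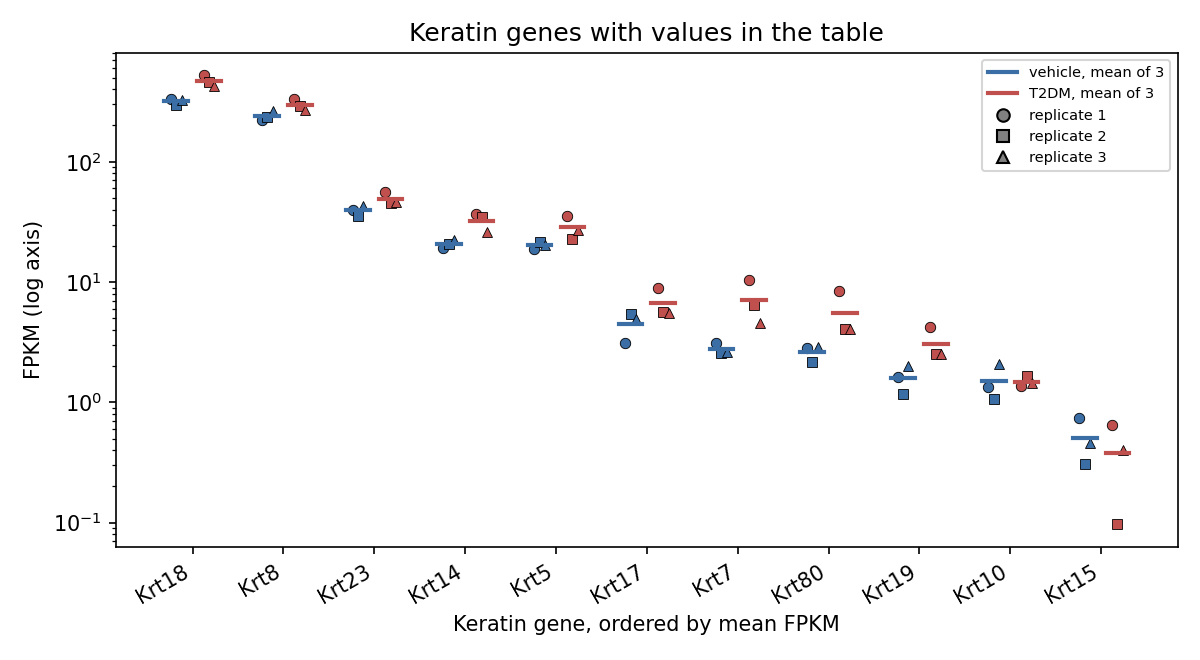
FPKM on a log axis of the 11 keratin genes with values in the table, ordered by their mean over the 6 libraries, with each symbol a library and each bar the mean of 3 libraries. Krt18 and Krt8 stand above all others, followed by Krt23, Krt14 and Krt5, and Krt10 and Krt15 overlap between the groups.

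Other genes of duct and luminal cells, listed apart from the 8 markers, were mostly higher in the T2DM group. The list was also drawn up with earlier results of these libraries known. Of its 22 genes 18 were tested, and 12 rose and 0 fell at the adjusted p of limma, beside 10.5% of all genes called higher. The median log2 difference was 0.89. Under the median of ratios 12 again passed, beside 3.93% of all genes called higher, with a median of 0.78. The count was 6, 2 and 1 without vehicle replicate 1, 2 or 3 in turn, beside 347, 199 and 25 of all 12135 genes. Without a T2DM library it was 8 to 12, beside 253 to 885 of all genes.

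The 3 most abundant genes of this list did not all follow. Cldn3, a tight junction claudin, rose from 49.0 ± 0.28 to 76.4 ± 9.1 FPKM (SD, n = 3 each, limma adjusted p = 0.0185). Cd24a, a surface glycoprotein of luminal cells, was at 230.5 ± 9.0 and 225.6 ± 19.1 FPKM and Ehf, an epithelial transcription factor, at 107.1 ± 7.1 and 130.9 ± 14.1 FPKM (SD, n = 3 each), and neither passed. The genes that rose were otherwise less abundant, and 3 are named here after their values were seen. Slpi, a secreted protease inhibitor, was at 8.45, 6.75 and 7.20 FPKM in vehicle LG and at 26.2, 25.9 and 19.8 FPKM in the T2DM group (limma adjusted p = 0.0037). Its groups were far apart, and it passed without each of the 6 libraries in turn. Wfdc2, another secreted inhibitor of this kind, rose from 2.90 ± 0.28 to 15.5 ± 8.7 FPKM, and Anxa1, an annexin that binds membrane lipids, from 27.2 ± 1.2 to 86.2 ± 35.9 FPKM (SD, n = 3 each, limma adjusted p = 0.023 and 0.022). For both, T2DM replicate 1 was the highest library, as for the 8 markers, and each passed in 3 of the 6 fits with a library left out.

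Partners of the keratin filament rose in part. Of 15 tested genes of plakins, which tie keratins to junctions, and of desmosomes, 7 rose and 0 fell, beside 10.5% and 1.7% of all genes, and the median log2 difference was 0.49 beside 0.16. Under the median of ratios 4 rose, beside 3.93% of all genes. Perp, a desmosome membrane protein, rose from 119.5 ± 6.9 to 155.5 ± 12.9 FPKM and Dsp, the plakin desmoplakin, from 33.3 ± 3.3 to 49.6 ± 8.3 FPKM (SD, n = 3 each, limma adjusted p = 0.042 and 0.041), whereas Jup, the plakoglobin gene, was at 15.3 ± 2.2 and 19.8 ± 2.6 FPKM (SD, n = 3 each) and did not pass. Neither Perp nor Dsp passed under the median of ratios, with adjusted p = 0.225 and 0.107. The count was 0 without vehicle replicate 3, 2 and 3 without vehicle replicates 2 and 1, and 3 without T2DM replicate 1. In the same fits 25, 199, 347 and 253 of all genes were called higher.

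Among 19 tested basal and myoepithelial genes, 9 rose and 0 fell, beside 10.5% and 1.7% of all genes, and the median was 0.41 beside 0.16. Under the median of ratios 4 rose, beside 3.93% of all genes. Acta2, the smooth muscle actin of myoepithelial cells, rose from 65.8 ± 2.7 to 84.5 ± 6.5 FPKM (SD, n = 3 each, limma adjusted p = 0.041), but it had an adjusted p of 0.262 under the median of ratios and passed in 0 of the 6 fits with a library left out. Gjb2, a gap junction protein, at 35.1 ± 1.7 and 38.3 ± 1.4 FPKM, and Tagln, an actin-binding protein of smooth muscle, at 23.5 ± 1.6 and 26.9 ± 1.1 FPKM, did not pass, nor did Trp63, the master regulator of basal cells, at 2.36 ± 0.26 and 3.48 ± 0.78 FPKM (SD, n = 3 each, limma adjusted p = 0.094). Sox10, a transcription factor of acinar and myoepithelial cells, and Itgb4, the hemidesmosome integrin, named after their values were seen, rose from 9.36 ± 0.79 to 20.6 ± 4.6 FPKM and from 5.90 ± 0.41 to 12.2 ± 2.4 FPKM (SD, n = 3 each, limma adjusted p = 0.016 and 0.017). The count was 0 without vehicle replicate 3, 2 and 3 without vehicle replicates 1 and 2, 2 without T2DM replicate 1, and 5 without T2DM replicate 3. In the same fits 25, 347, 199, 253 and 885 of all genes were called higher.

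Genes shared by most epithelial cells were examined next. Of 17 tested pan-epithelial genes 5 rose and 0 fell, beside 10.5% and 1.7% of all genes, with a median of 0.29 beside 0.16. Under the median of ratios 3 rose and 2 fell, beside 3.93% and 3.96% of all genes. Besides Epcam, Cdh1, the gene of E-cadherin, rose from 38.99 ± 0.26 to 61.9 ± 11.3 FPKM (SD, n = 3 each, limma adjusted p = 0.026), whereas Spint2, a protease inhibitor, was at 72.6 ± 7.4 and 86.6 ± 8.0 FPKM (SD, n = 3 each) and did not pass. The count was 2, 1 and 0 without vehicle replicate 1, 2 or 3, beside 347, 199 and 25 of all genes called higher. Of 17 tested acinar genes 2 rose (Itpr2 and Xbp1) and 2 fell (Lcn11 and Rab27b), again beside 10.5% and 1.7% of all genes. The higher count is near that of genes in general, whereas the lower count is above it but rests on 2 genes. The median of the acinar list was 0.27 beside 0.16. Obp1a, an odorant-binding protein and the most abundant gene of that list, was at 69655 ± 2961 and 72280 ± 8440 FPKM (SD, n = 3 each). Lcn11, a lipocalin, fell from 2311 ± 237 to 1493 ± 207 FPKM (SD, n = 3 each). Lcn11 passed in 1 of the 6 fits with a library left out. Its limma adjusted p was 0.018 under the median of ratios and 0.0885 with equal summed FPKM. Car6, a secreted carbonic anhydrase, was at 1061 ± 196 and 1630 ± 293 FPKM (SD, n = 3 each) without passing. Under the median of ratios 1 acinar gene rose and 3 fell, beside 3.93% and 3.96% of all genes. With a library left out 0 to 3 rose and 0 to 1 fell, beside 25 to 885 and 16 to 130 of all genes. Whether duct and basal cells make up a larger part of the T2DM gland was not tested.

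**Figure D5:**
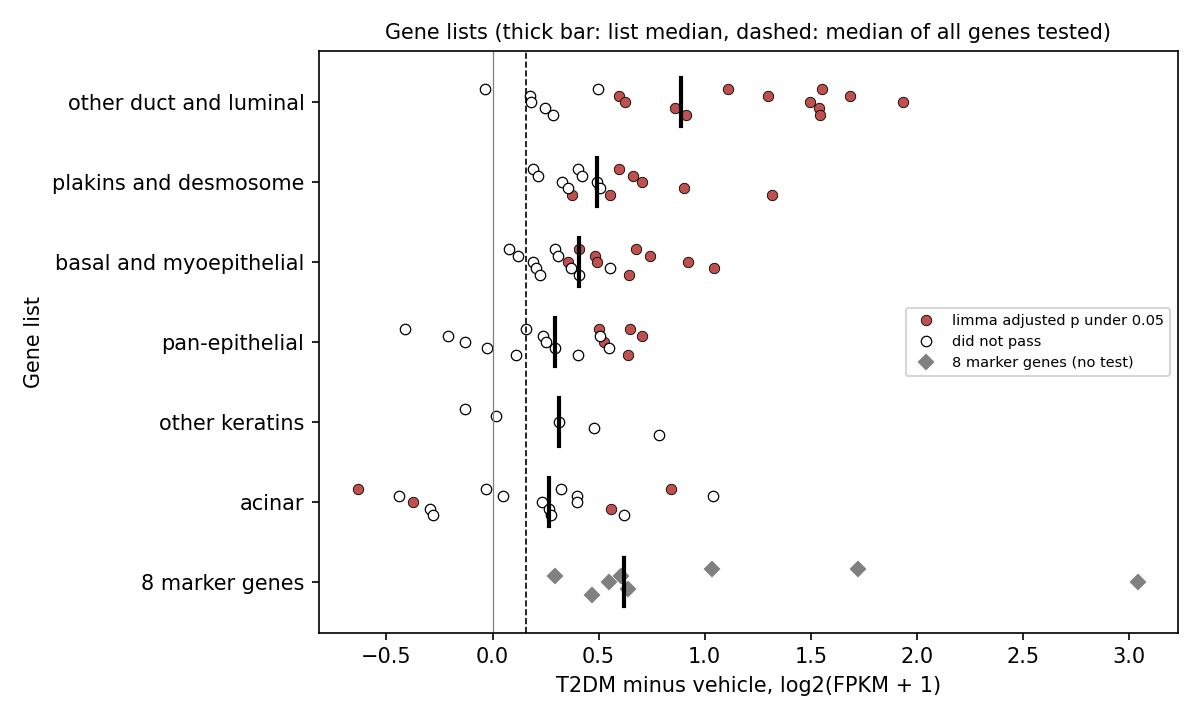
Difference between T2DM and vehicle means of log2(FPKM + 1) for each tested gene of 6 epithelial gene lists (filled where limma's adjusted p was under 0.05) and for the 8 marker genes (grey, no test), with a thick bar at each median and a dashed line at the median of all genes tested. The other duct and luminal genes have a median of 0.89 with 12 of 18 filled, against 0.16 for all genes, and the acinar genes spread to both sides.

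Markers of other cell types were examined beside Msln and the keratins. Of 12 mesothelial genes 3 had values and 1 was tested, and their sum ran from 1.58 to 2.88 FPKM in the vehicle libraries and from 0.581 to 1.52 FPKM in the T2DM libraries. Aldh1a2, an enzyme of retinoic acid synthesis, was at 1.89 ± 0.88 and 0.764 ± 0.341 FPKM (SD, n = 3 each, limma adjusted p = 0.108). Muc16, Wt1 and Upk3b were also on this list. Muc16 had no values, and Wt1 and Upk3b were not among the genes tested. Among 5 tested genes of stratified squamous epithelium, Dmkn, Krt10 and Ly6d were the most abundant. Dmkn alone passed (limma adjusted p = 0.047), beside 10.5% of all genes called higher. Of this list, 0 genes were called higher under the median of ratios, without the filter, or with any 1 of the 6 libraries left out. Without T2DM replicate 3, 1 gene of the list was called lower, beside 123 of all 12135 genes tested. The sum of this list was 8.75 to 9.30 FPKM in the vehicle libraries and 9.84 to 15.3 FPKM in the T2DM libraries. By limma, 0 of 8 fibroblast genes led by Col3a1, Dcn and Lum passed, with 0 at an unadjusted p under 0.05. Likewise 0 of 9 salivary gland genes passed, with 1 lower unadjusted. Without vehicle replicate 1, the library high in these genes, 1 was called lower, beside 86 of all genes. The count was also 1 with equal summed FPKM and with a pseudocount of 0.1, beside 103 and 203 of all genes. It was 0 without each other library. Of all 12135 genes tested, 3462 were higher and 555 lower at an unadjusted p under 0.05.

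Of 11 leukocyte genes, led by Jchain, Cd68 and Csf1r, 2 rose, the B cell genes Cd79a and Cd79b, beside 10.5% of all genes, and 1 passed under the median of ratios. The sum of the list was 205.7 to 302.0 FPKM in the vehicle libraries and 330.6 to 405.9 FPKM in the T2DM libraries. Jchain alone made up most of this sum, at 214.1 ± 49.3 and 302.6 ± 44.3 FPKM (SD, n = 3 each). It did not pass (limma adjusted p = 0.102), so the sum says little about the other leukocyte genes. The count of leukocyte genes that rose was 0 without vehicle replicate 3, beside 25 of all genes. It was 1 to 2 without each other library, beside 199 to 885 of all genes. Of 5 adipocyte genes led by Cfd, Fabp4 and Lipe, Plin4 alone passed (limma adjusted p = 0.040), beside 10.5% of all genes called higher. Under the median of ratios, or with any 1 library other than T2DM replicate 3 left out, 0 passed. The filter of 1 FPKM left Plin4 out of the test, as its group means were 0.461 and 0.961 FPKM. The sums of the adipocyte genes overlapped between the groups. The only tested muscle gene, Myl2, did not pass, with 0 of 1 also at an unadjusted p under 0.05. The part of these cell types in the values of the 8 markers was not tested.

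Receptors that can bind clusterin were also few in the table. Lrp2, the endocytic receptor megalin, was at 2.88, 1.72 and 1.85 FPKM in vehicle LG and at 7.09, 4.20 and 5.10 FPKM in the T2DM group (limma adjusted p = 0.025), higher in each T2DM library, and it passed in 3 of the 6 fits with a library left out. Trem2, a receptor of myeloid cells, at 1.41 ± 0.18 and 1.18 ± 0.16 FPKM, and Vldlr, a lipoprotein receptor, at 2.42 ± 0.24 and 1.77 ± 0.29 FPKM (SD, n = 3 each), did not pass.

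Genes with the most similar profile over the 6 libraries were sought for 4 of the markers, by the root mean square distance between values of log2(FPKM + 1) after each gene's own mean was removed. Nearest to Msln were Alox12e, a lipoxygenase, at a distance of 0.40, Dbp, an output gene of the circadian clock, at 0.53, and 1700016C15Rik at 0.58. Nearest to Clu were Inmt at 0.16, Ubd at 0.17 and Rgs5 at 0.20. Around Krt7 lay Alox12, another lipoxygenase, at 0.051, Cyp2d22, a cytochrome, at 0.054, and Mme, the membrane protease neprilysin, at 0.057. Around Krt14 lay Cav2, a caveolin, at 0.044, Ell3 at 0.059 and Emb at 0.060. Alox12e was at 1.28 ± 0.62 and 21.2 ± 12.0 FPKM, and Alox12 at 3.09 ± 0.35 and 8.25 ± 3.26 FPKM (SD, n = 3 each). The 6 libraries fall into a lower and an upper group, which allows only this description.

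Start regions are shown for Krt7, Krt8 and Krt18, luminal keratins on chromosome 15 that differed by unlike amounts. The basal keratin Krt5 lies on the same chromosome, but its window, which held none of the motifs given below, is not shown. The windows run from 250 bases before to 50 bases after the start given by RefSeq (GRCm38.p6), 5′ to 3′ on the gene's strand, and 5 of the 8 genes (Krt5, Krt7, Krt8, Krt14 and Krt18) had an entry. Capitals mark exact matches on either strand to TATAAA, the sequence of the TATA box, or GGGCGG, that of the GC box. Whether a match acts as such an element was not tested. For Krt8 the start lies 140 bases from that of the GENCODE M21 coding transcript.
Krt7 chr15:101412153-101412452: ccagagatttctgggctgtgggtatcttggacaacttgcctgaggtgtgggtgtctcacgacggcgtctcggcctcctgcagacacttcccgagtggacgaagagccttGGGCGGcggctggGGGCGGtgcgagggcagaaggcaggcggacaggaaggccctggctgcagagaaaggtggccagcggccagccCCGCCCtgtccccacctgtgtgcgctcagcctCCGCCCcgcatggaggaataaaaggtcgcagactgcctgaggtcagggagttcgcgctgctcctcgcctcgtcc
Krt8 chr15:102004293-102004592: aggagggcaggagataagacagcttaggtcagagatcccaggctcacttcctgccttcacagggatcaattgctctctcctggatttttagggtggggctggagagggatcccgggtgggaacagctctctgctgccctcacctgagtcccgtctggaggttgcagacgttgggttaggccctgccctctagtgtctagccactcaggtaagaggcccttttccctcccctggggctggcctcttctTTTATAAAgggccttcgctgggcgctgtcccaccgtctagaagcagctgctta
Krt18 chr15:102027966-102028265: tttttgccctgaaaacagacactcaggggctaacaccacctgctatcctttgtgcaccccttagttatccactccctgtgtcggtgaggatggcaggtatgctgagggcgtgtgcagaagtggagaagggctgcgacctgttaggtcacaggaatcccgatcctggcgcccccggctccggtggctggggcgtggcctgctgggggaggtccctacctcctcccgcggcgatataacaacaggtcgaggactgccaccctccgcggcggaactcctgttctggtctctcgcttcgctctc
Krt7 had 4 matches to GGGCGG, with first bases 141, 128, 56 and 24 bases before the start, the former pair on the forward and the latter pair on the reverse strand. Krt8 had TATAAA on both strands in overlapping matches 3 and 1 bases before the start. Krt18 held neither motif. Over 32851 RefSeq windows of the same kind, GGGCGG occurred in 35.7% and TATAAA in 13.6%. The motifs TGANTCA (AP-1) and AACCNGTT (the grainyhead motif), were in none of these 3 windows and in 7.8% and 2.1% of all windows.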

How the data were processed

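The authors trimmed poly(A) RNA-seq reads, aligned them with HISAT2, estimated abundance with StringTie and deposited gene-level FPKM, computed with Ballgown, in a single table for the 6 libraries. Human builds (hg19, GRCh37) appear in the submitters' notes, whereas the gene IDs and positions are those of mouse GRCm38. Groups came from the sample labels, and 0 other per-sample columns were left out.

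The 8 genes and the 14 gene lists were chosen with earlier results of these data known. All genes were tested at once with limma 3.58.1 (R 4.3.3) on log2(FPKM + 1), two-sided, with a mean-variance trend and no covariate. Genes entered if either group mean reached 0.5 FPKM (12135 of 12491, among them all 8 markers), and p-values were adjusted over all of them by Benjamini-Hochberg. A log2 difference on this scale understates the change of genes with low FPKM. In ratios and levels, means and SDs are of FPKM itself. Gene lists are described by their counts, with the share of all genes called given beside most of them.

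Genes named were the 8 markers, the 3 most abundant of each list, keratins with a mean of at least 1 FPKM, a few fixed markers (Muc16, Trp63, Acta2, Epcam, Cdh1, Upk3b and Wt1) and the 3 nearest profiles of Msln, Clu, Krt7 and Krt14. Others are said to be named after their values were seen or are the members of a list that passed the test. Start regions are those of RefSeq (GRCm38.p6), and transcripts those of GENCODE M21. A stretch of the keratin coding sequences is not reported here. Depth is unknown, so errors are SDs between 3 libraries. The table was read with 1 blank line skipped.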

Additional observations from a re-analysis of the deposited data

How the results depend on the processing

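The log2 differences of the 8 markers and both their medians kept their sign under all 16 alternatives. The counts over all genes depended on scaling. The median of ratios gave 477 genes higher and 481 lower, equal summed FPKM gave 3451 and 103, equal summed FPKM without secretoglobins gave 833 higher, and the median FPKM, a scaling chosen after seeing the data, gave 442 and 569. The 8 markers were chosen by the same contrast, so calls on them are given for completeness and nothing is read from them. Of the 8 markers 2, 8 and 2 passed the adjusted p under the median of ratios, equal summed FPKM and the median FPKM. A linear model of each gene without shared variance called 0 genes higher, 0 lower and 0 markers, with 2960, 488 and 5 at an unadjusted p under 0.05. Leaving out a library gave 25 to 885 genes higher, 16 to 130 lower and 1 to 5 markers, each lowest without vehicle replicate 3. Every one of these fits has fewer samples by construction. The median of the 6 duct and luminal genes was 1.07 with a pseudocount of 0.1 and 0.61 to 1.003 with a library left out. The median of the 2 basal genes was 0.77 with equal summed FPKM and 0.31 with the median FPKM. The cause of these shifts was not tested. FPKM hold no depth, so counting error could not be set apart from the spread between libraries.

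The labels number the replicates alike in both groups, and the deviations of same-numbered libraries correlated at 0.032, 0.016 and -0.002. These values show no shared deviation by number, but with 3 libraries per group they cannot exclude that the samples were paired. With the replicate number as a block, 551 genes were higher and 98 lower, and the other duct and luminal genes that rose numbered 10 and the basal and myoepithelial genes 2. That fit called 4 of the 8 markers, from which likewise nothing is read.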
